A study of Homo sapiens with 6 samples.

Results

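The genes described are the ATP-binding cassette (ABC) genes that lie outside multidrug efflux. They were chosen by symbol alone, as the rows whose name is ABC, a family letter A to G and a number, leaving out the multidrug efflux genes ABCB1, ABCC1, ABCC2, ABCC3, ABCC4, ABCC5, ABCC6, ABCC10 and ABCG2. This gave 37 genes of the 56638 gene rows, and 21 of the 37 held enough counts to be tested. The libraries are bulk RNA sequencing of cells labelled SW480, a human line from a colorectal adenocarcinoma, grown in RPMI-1640 medium with fetal bovine serum. The TGFB1 group, 3 libraries, received the cytokine TGF-β1 at 10 ng/ml on more than 4 occasions, and the Control group, 3 libraries, was left untreated. All 6 libraries carry passages 16 to 19, no genetic change is labelled in either group, and the labels do not state the total time of exposure.

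ABC proteins bind and hydrolyse ATP with a conserved cassette, and most of them use it to move a substrate across a membrane. Outside drug efflux, the A and G families mainly move sterols and phospholipids, several B proteins serve mitochondria and lysosomes, and the D family imports fatty acyl-CoA into peroxisomes. The E and F proteins have no membrane domain and act on ribosomes. In gut and liver cells the family is best known for cholesterol efflux, bile formation and fatty acid breakdown.

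Total counts in genes ran from 13012898 to 16005222 per library. CPM below are counts per 1000000 of the library total, scaled by TMM, edgeR's correction for composition. A count of 0 over the 3 libraries of a group allows up to 0.0677 CPM in the TGFB1 group and 0.0698 CPM in the Control group, counting error only. Nothing in the labels ties the libraries to separate cultures. The p-values therefore cover only the variation among these 6 samples, part or all of which could be technical. Of 14 colorectal epithelium markers, 9 stayed under 1 CPM in every library, among them CDX2, GPA33 and ASCL2 with 0 counts throughout. The other 5 were tested, and 3 were lower, 1 was higher and 1 did not pass. KRT18 fell 1.47-fold, EPCAM 1.73-fold and CDH1 3.95-fold, and LGR5 rose 3.36-fold. The last 2 rest on few counts. Each of these 2 passed the count filter only through the group where it was higher, which favours the direction it was called in. CDH1 had 1, 6 and 5 counts in TGFB1 and 16, 15 and 16 in Control libraries. LGR5 had 15, 19 and 12 counts in TGFB1 and 3, 4 and 6 in Control libraries. The keratin gene KRT8 averaged 1678 ± 20.4 CPM in TGFB1 and 1711 ± 1.33 CPM in Control libraries (SD, n = 3) and did not pass. Of 10 fibroblast markers 5 were tested and all 5 were called higher with TGF-β1, beside 23.4% of all tested genes. FAP passed the count filter through the TGFB1 group alone, which favours a rise. It had 17, 22 and 12 counts there and 0, 0 and 1 in Control libraries. The THY1 groups overlapped. The list's summed level was 120 to 136 CPM in TGFB1 and 91.0 to 95.03 CPM in Control libraries. Most of it was COL1A1, with means of 105 and 81.3 CPM. COL1A2, COL3A1, PDGFRA and POSTN had at most 2 counts in any library. Among 6 immune markers PTPRC had 0 counts in all libraries, and the summed level of the list was 1.77 to 3.18 CPM in TGFB1 and 2.06 to 2.27 CPM in Control libraries. Of 5 endothelial markers only VWF was tested and it fell 5.09-fold, PECAM1 and KDR had 0 counts in all libraries, and the summed level was 0.755 to 1.02 CPM in TGFB1 and 2.72 to 3.41 CPM in Control libraries. These markers moved with the same contrast as the genes below, and their part in those results was not tested. In bulk RNA, fewer cells of a type and less RNA per cell cannot be told apart.

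Promoters from RefSeq (build GRCh38.p14) were available for 28 of the 37 genes, as 250 bases before and 50 after the annotated start. The 4 shown belong to the member that was higher with TGF-β1 and has an entry (ABCA1), and to the called members with the 3 largest falls (ABCA13, ABCA5 and ABCA2). Capitals mark matches, on either strand, to a direct repeat of the kind bound by liver X receptors (GGTNA, any 5 bases, GGTNA) or to the E-box CAGGTG.
ABCA1, chr9:104928106-104928405, minus strand: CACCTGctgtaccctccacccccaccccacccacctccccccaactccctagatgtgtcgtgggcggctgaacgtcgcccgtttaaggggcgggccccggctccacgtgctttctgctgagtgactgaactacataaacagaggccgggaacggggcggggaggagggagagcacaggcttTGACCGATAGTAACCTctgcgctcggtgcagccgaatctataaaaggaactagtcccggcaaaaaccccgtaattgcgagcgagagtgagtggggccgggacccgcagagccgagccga
ABCA13, chr7:48171208-48171507, plus strand: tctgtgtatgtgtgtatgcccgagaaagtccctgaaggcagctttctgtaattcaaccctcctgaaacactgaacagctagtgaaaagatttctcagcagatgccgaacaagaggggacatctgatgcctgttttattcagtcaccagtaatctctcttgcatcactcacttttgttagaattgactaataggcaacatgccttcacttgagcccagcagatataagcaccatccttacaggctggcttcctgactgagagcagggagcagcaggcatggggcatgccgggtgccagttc
ABCA5, chr17:69327084-69327383, minus strand: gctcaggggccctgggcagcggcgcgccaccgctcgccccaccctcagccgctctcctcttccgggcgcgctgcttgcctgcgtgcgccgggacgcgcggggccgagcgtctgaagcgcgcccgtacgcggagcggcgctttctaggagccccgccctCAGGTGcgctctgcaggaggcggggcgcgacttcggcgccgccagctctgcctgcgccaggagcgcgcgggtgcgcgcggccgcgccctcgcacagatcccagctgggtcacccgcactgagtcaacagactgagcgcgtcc
ABCA2, chr9:137028873-137029172, minus strand: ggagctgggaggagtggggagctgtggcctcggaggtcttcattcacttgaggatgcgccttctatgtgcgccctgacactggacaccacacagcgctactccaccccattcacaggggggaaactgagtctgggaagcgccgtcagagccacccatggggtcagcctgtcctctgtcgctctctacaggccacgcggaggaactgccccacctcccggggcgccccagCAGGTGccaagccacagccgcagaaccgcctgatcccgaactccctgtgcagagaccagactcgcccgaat

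Liver X receptors (LXRs) are oxysterol sensors that pair with RXR and switch on ABCA1 and ABCG1. The repeat occurred in the ABCA1 window as TGACCGATAGTAACCT, at bases -69 to -54 from the start, and in no other of the 28 member windows. Among all 35116 RefSeq promoters, 0.624% held it. ABCG1 had no promoter entry and was not searched. The pattern leaves a base of each GGTNA open and was chosen with the rise of ABCA1 known. Its match at ABCA1 is therefore no test of LXR control. CAGGTG, which can be read by ZEB and SNAIL repressors, was in 9 of the 28 member windows and in 20.6% of all promoters. The SMAD-type letters CAGACA were in 2 of the 28, ABCA12 and ABCF1, and in 16.9% of all promoters. None of these motifs was found in the ABCA13 window. That window also held 3 CG pairs, against 45 in that of ABCA5, 23 in that of ABCA1 and 16 in that of ABCA2. The median over all promoters was 14. A match is a description of letters and not a site of binding.

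Of the 21 tested genes, 2 were higher with TGF-β1, 10 were lower and 9 did not pass (edgeR's quasi-likelihood test, adjusted p under 0.05 over all 14897 tested genes). Over all tested genes 47.3% were called, 23.4% as higher and 23.9% as lower, and among the members the shares were 57.1%, 9.52% and 47.6%. The median log2 fold change, TGFB1 minus Control, was -0.12 over the tested members and 0.0003 over all tested genes. When libraries were scaled by their totals only, the split among members was 3 higher and 7 lower, and the share of higher calls over all genes was 59.4% instead of 49.4%. In 12 of the 21 the libraries of the groups did not overlap, 57.1% against 54.2% of all tested genes. Both rises were in cholesterol exporters, ABCA1 and ABCG1, and the largest falls among called members were in ABCA genes. No tested member passed the count filter through 1 group alone. The members' summed level was 1346, 1347 and 1304 CPM in TGFB1 libraries 1 to 3, against 1524, 1569 and 1566 CPM in Control libraries 1 to 3.

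**Figure D1:**
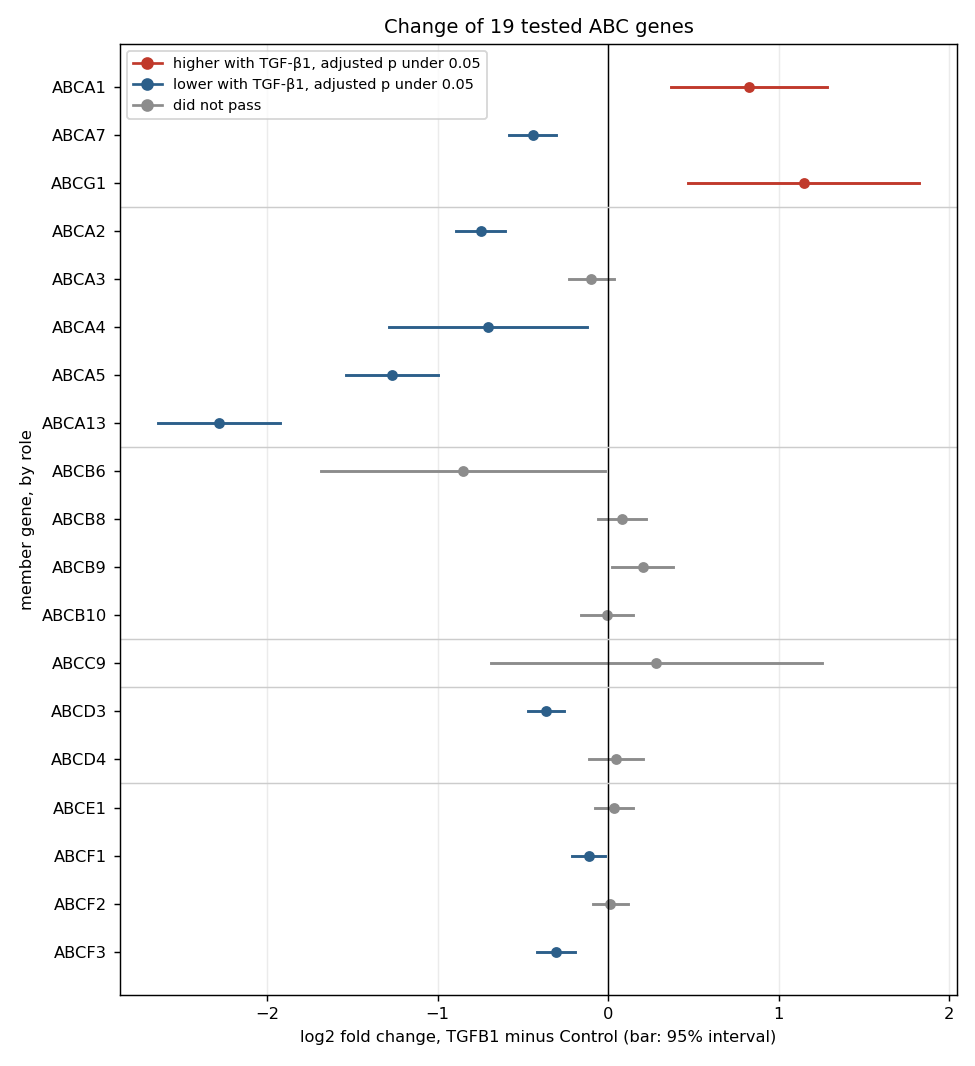
Log2 fold change, TGFB1 minus Control, of 19 tested ABC genes, grouped by role, with unadjusted 95% intervals as bars. ABCA1 and ABCG1 lie right of 0 as the 2 genes called higher, 8 genes called lower lie left of it with ABCA13 farthest at -2.28, and the 9 in grey did not pass.

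The remaining 16 members were not tested and stayed under 1 CPM in every library. ABCC12 and ABCC13 had 0 counts in every library, and 8 members in all, these included, had 3 counts or fewer in each group. The others of those 8 were the ABCA genes ABCA6 and ABCA9, the bile salt exporter ABCB11, the sulphonylurea receptor gene ABCC8, the peroxisomal ABCD2 and the sterol transporter gene ABCG8. ABCA8, the most counted of the 16, had 23 counts over the TGFB1 libraries and 17 over the Control libraries. ABCB5 had 0 counts in TGFB1 libraries and 6 in Control libraries, and ABCG5, the partner of ABCG8, had 1 and 8. None of the 14 of these genes with any count was called when the count filter was dropped (edgeR adjusted p of 0.0814 or more).

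**Figure D2:**
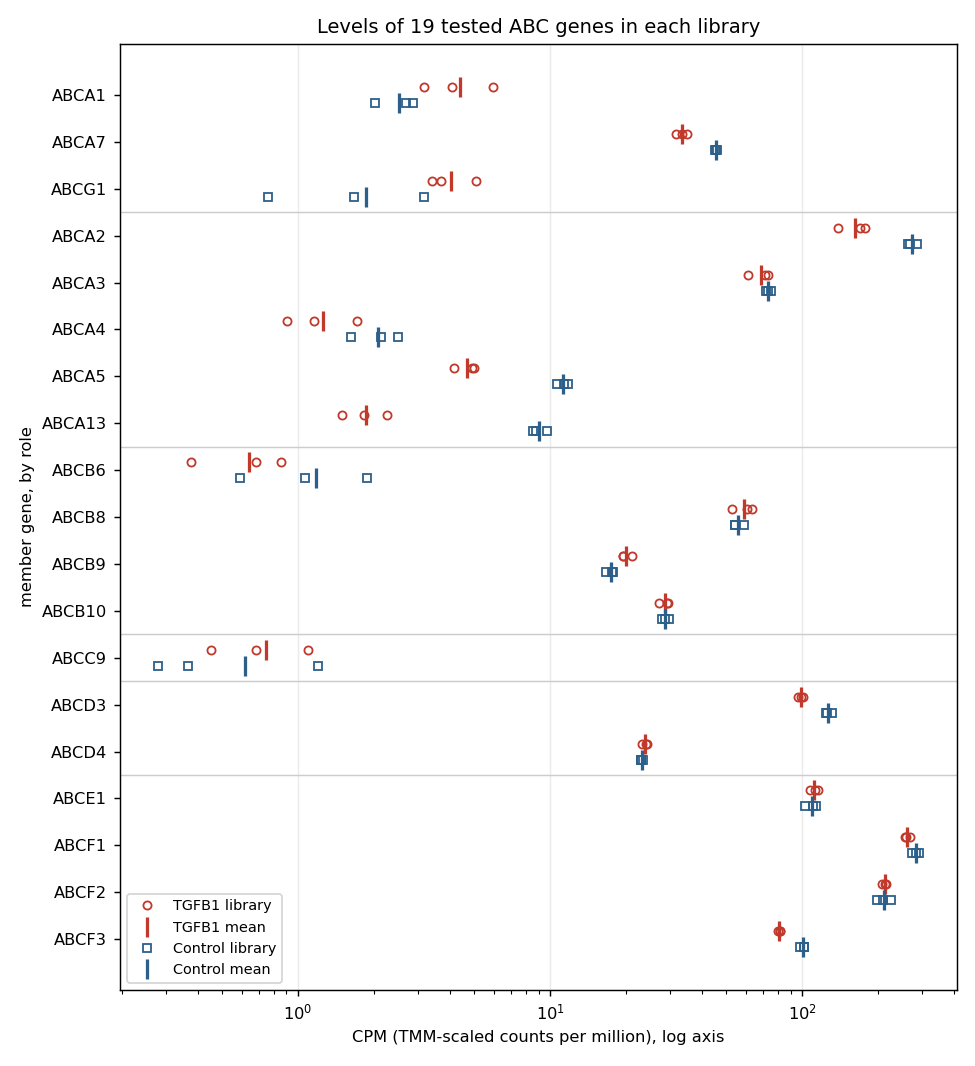
CPM of 19 tested genes in each library on a log axis, grouped by role, with circles for TGFB1 and squares for Control libraries and ticks for group means. Levels run from ABCC9 and ABCB6 near 1 CPM to ABCF1 at 261 CPM in TGFB1 and 283 CPM in Control libraries.

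Levels were compared between genes only per length, as CPM per kilobase of the longest transcript in the full GENCODE 29 transcript set. On this scale ABCF1 stood highest in both groups, at 75.0 ± 1.75 in TGFB1 and 81.2 ± 2.65 in Control libraries (SD, n = 3), followed by ABCF2 at 60.0 ± 1.19 and 59.5 ± 3.71. ABCF3 stood at 28.6 ± 0.329 in TGFB1 and 35.4 ± 0.783 in Control libraries, and ABCA2 at 19.9 ± 2.48 in TGFB1 and 33.4 ± 1.39 in Control libraries. ABCE1 was at 28.5 ± 1.15 in TGFB1 and 27.8 ± 1.41 in Control libraries, so that it was above ABCA2 in the TGFB1 group and below it in the Control group. At the low end, ABCA1 stood at 0.418 ± 0.134 in TGFB1 and 0.240 ± 0.0425 in Control libraries, and ABCA13 at 0.108 ± 0.0224 in TGFB1 and 0.526 ± 0.0371 in Control libraries. Transcript use in these cells is unknown, so this scale is approximate.

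Of 8 exporters of sterols, phospholipids and bile salts 3 were tested, with 2 higher and 1 lower. ABCA1 loads cholesterol and phospholipid onto lipid-poor apolipoprotein A-I, and ABCG1 passes cholesterol on to larger lipoprotein particles. ABCA1 had 4.08, 5.93 and 3.17 CPM in TGFB1 libraries 1 to 3, against 2.86, 2.01 and 2.67 CPM in Control libraries 1 to 3. The groups did not overlap, TGFB1 library 2 was the highest and the gap between the groups was small. The rise was 1.77-fold (log2 0.82 ± 0.22 SE, edgeR adjusted p = 0.00300), and without TGFB1 library 2 it was 0.53 on the log2 scale and did not pass (edgeR adjusted p = 0.0656).

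ABCG1 had 3.40, 5.07 and 3.70 CPM in TGFB1 libraries, against 3.16, 0.763 and 1.67 CPM in Control libraries. Control library 1 lay just below the lowest TGFB1 library, and the Control libraries differed among themselves by several fold. The rise was 2.21-fold (log2 1.15 ± 0.32 SE, edgeR adjusted p = 0.00696), with 0.77 on the log2 scale without Control library 2 and 1.73 without Control library 1. DESeq2 gave no call (DESeq2 adjusted p = 0.0968). Both rises thus rest on 11 to 97 counts per library.

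ABCA7, a phospholipid transporter closely related to ABCA1, went the other way. Its levels were 33.5, 35.1 and 31.7 CPM with TGF-β1, against 45.5, 45.3 and 45.7 CPM in Control libraries. The Control libraries were almost equal and all TGFB1 libraries lay below them, a 1.36-fold fall (log2 -0.44 ± 0.067 SE, edgeR adjusted p = 2.80e-06). ABCG4, a brain-enriched relative of ABCG1, had 3, 10 and 7 counts in TGFB1 libraries and 0, 5 and 3 in Control libraries, and was not tested. ABCB4, which flips phosphatidylcholine into bile, had 4 counts over TGFB1 and 7 over Control libraries. ABCB1, its neighbour on chromosome 7 and close relative, which the rule leaves out, stood at 0.614 ± 0.140 CPM in TGFB1 and 26.2 ± 0.153 CPM in Control libraries (SD, n = 3).

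**Figure D3:**
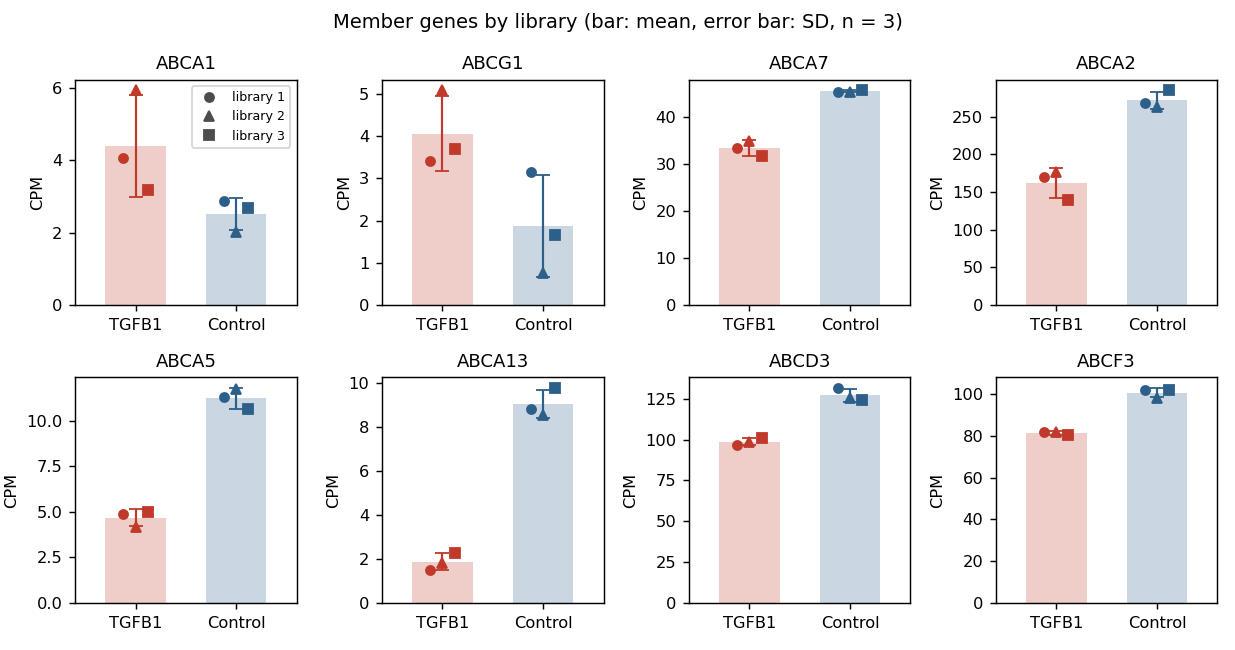
CPM of 8 member genes in each library, with bars for group means, error bars for SD (n = 3) and a symbol for each library number. ABCA1 and ABCG1 are higher in TGFB1 libraries with wide spread, and the other 6 genes are lower in all 3 TGFB1 libraries than in any Control library.

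Genes around LXR and cholesterol moved in both directions as well. Of 11 tested LXR pathway genes 3 were higher, 5 were lower and 3 did not pass (median log2 fold change 0.18). For this list and those below, the shares over all tested genes were 23.4% higher and 23.9% lower. Whether any list departs from these shares was not tested. The gene of the receptor LXRα, NR1H3, fell 1.59-fold, to 30.0 ± 0.531 CPM in TGFB1, against 47.7 ± 0.796 CPM in Control libraries (edgeR adjusted p = 1.42e-09). Its partner genes split, RXRA falling 1.47-fold and RXRB rising 1.57-fold (edgeR adjusted p = 4.45e-10 and 7.23e-10). Among other known LXR target genes, chosen after their values were seen, SREBF1 fell 1.73-fold, MYLIP 1.43-fold and LPCAT3 1.28-fold, and SCD stood at 572 ± 72.1 CPM in TGFB1 and 484 ± 75.6 CPM in Control libraries and did not pass. ABCA1 and ABCG1 were thus higher while SREBF1, MYLIP and LPCAT3 were lower.

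Of 9 tested genes of cholesterol entry and storage 4 were higher, 4 were lower and 1 did not pass (median 0.15). SOAT1, which esterifies cholesterol for storage and so draws on the same pool as the exporters, fell 2.71-fold, to 169 ± 2.86 CPM in TGFB1, against 459 ± 9.27 CPM in Control libraries (edgeR adjusted p = 2.48e-20). STARD3 and NPC2, which handle cholesterol at late endosomes and lysosomes, rose 1.37-fold and 1.32-fold.

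Other ABCA genes gave the largest falls among called members. Of the 5 tested 4 were lower and ABCA3 did not pass. ABCA13, the longest member by transcript and one whose substrate is poorly known, had 1.49, 1.83 and 2.26 CPM in TGFB1 libraries, against 8.81, 8.54 and 9.75 CPM in Control libraries. The groups were far apart, at 22 to 30 counts per TGFB1 library and 120 to 146 per Control library. The fall was 4.86-fold (log2 -2.28 ± 0.17 SE, edgeR adjusted p = 7.21e-12).

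ABCA5, a transporter of lysosomes and late endosomes, had 4.89, 4.16 and 4.98 CPM with TGF-β1, against 11.3, 11.7 and 10.6 CPM in Control libraries. No library came near those of the other group, and the fall was 2.41-fold (log2 -1.27 ± 0.13 SE, edgeR adjusted p = 4.31e-09). ABCA13 and ABCA5 were the members at least 2-fold lower, 9.52% of those tested beside 4.16% of all tested genes. ABCA5 lies in a cluster on chromosome 17 with ABCA6, ABCA8, ABCA9 and ABCA10, each of which had 23 counts or fewer over any group. In the basic GENCODE 29 annotation 318 exonic bases are shared by ABCA5 and ABCA10, 3.45% of the exonic bases of ABCA5.

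ABCA2, a lipid transporter of endosomes and lysosomes that is abundant in myelinating cells, was by counts the highest ABCA gene. It had 169.7, 177 and 139 CPM in TGFB1 libraries, against 268, 263 and 285 CPM in Control libraries. TGFB1 library 3 was the lowest and the groups were well separated, a 1.68-fold fall (log2 -0.75 ± 0.068 SE, edgeR adjusted p = 3.01e-08). ABCA4, the retinal flippase, was low, at 1.16, 1.71 and 0.906 CPM in TGFB1 and 1.62, 2.50 and 2.14 CPM in Control libraries. Its groups overlapped, and the fall of 0.70 ± 0.28 on the log2 scale was at the threshold (edgeR adjusted p = 0.0423). The ABCA4 call ended without TGFB1 library 1 or 3 or Control library 2 or 3 (edgeR adjusted p of 0.0978 to 0.163) and in DESeq2 (DESeq2 adjusted p = 0.116).

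ABCA3, which loads surfactant lipid into lamellar bodies of lung cells, had 70.9, 73.2 and 61.0 CPM in TGFB1 libraries, against 71.9, 75.2 and 73.0 CPM in Control libraries. The groups overlapped and only TGFB1 library 3 stood apart. The difference did not pass (edgeR adjusted p = 0.219), with a 95% interval of -0.23 to 0.033 on the log2 scale. ABCA12, which carries glucosylceramide in skin, had 14 counts over TGFB1 and 20 over Control libraries and was not tested.

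Among ABCB transporters of mitochondria and lysosomes, ABCB6, ABCB8, ABCB9 and ABCB10 did not pass. ABCB8 and ABCB10, of the mitochondrial inner membrane, overlapped between groups. ABCB8 averaged 58.8 ± 5.65 CPM in TGFB1 and 55.6 ± 2.62 CPM in Control libraries, with a 95% interval of -0.057 to 0.22 (log2, edgeR adjusted p = 0.338). ABCB10 averaged 28.5 ± 1.35 CPM in TGFB1 and 28.7 ± 0.885 CPM in Control libraries, with an interval of -0.16 to 0.15 (log2, edgeR adjusted p = 0.956).

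ABCB9, a peptide transporter of lysosomes related to the antigen transporters TAP1 and TAP2, had 19.5, 19.5 and 21.1 CPM in TGFB1 libraries, against 17.8, 16.7 and 17.6 CPM in Control libraries. The groups did not overlap, but the difference of 0.20 ± 0.087 on the log2 scale did not pass (edgeR adjusted p = 0.0569). The call was made with library totals as the only scaling (edgeR adjusted p = 0.0157) and with upper-quartile scaling (edgeR adjusted p = 0.0325). It was not made in the other 13 alternatives. In the basic GENCODE 29 annotation, 44.1% of its exonic bases are shared with genes on the opposite strand, and the sources do not state whether strand was used in counting. TAP1 itself was 1.81-fold lower (edgeR adjusted p = 3.36e-10) and TAP2 averaged 104 ± 6.65 CPM in TGFB1 and 97.9 ± 3.86 CPM in Control libraries and did not pass.

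ABCB6, a porphyrin transporter, had 10, 14 and 5 counts in TGFB1 libraries and 8, 27 and 16 in Control libraries. The groups overlapped and the difference did not pass (edgeR adjusted p = 0.0863). In the basic GENCODE 29 annotation, 94.1% of its exonic bases are shared with another gene on the same strand. Whether that gene was in the annotation used for counting is not stated. Counting that sets aside reads over several genes can lose such reads, so the level of ABCB6 is uncertain. Of 16 tested genes of haem and iron-sulphur cluster synthesis 3 were higher, 5 were lower and 8 did not pass (median 0.04). FECH, the last enzyme of haem synthesis, fell 1.52-fold and ALAS1, the first, 1.22-fold, while the mitochondrial iron importer SLC25A37 rose 1.28-fold (edgeR adjusted p = 7.70e-07, 3.43e-05 and 8.21e-06).

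Of the ABCB and ABCC genes without a place in these groups, ABCC9 alone was tested. ABCC9 encodes the sulphonylurea receptor SUR2, which regulates ATP-sensitive potassium channels. It had 10, 18 and 6 counts in TGFB1 libraries and 5, 4 and 18 in Control libraries, with overlap and no call (edgeR adjusted p = 0.660). The channel pores it works with were near the floor, KCNJ8 at 0 counts throughout and KCNJ11 at 2 counts over TGFB1 and 7 over Control libraries. ABCC11, a transporter known for its role in sweat and earwax glands, had 7 counts over each group.

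Of the ABCD genes, the peroxisomal ABCD3 was lower and the lysosomal ABCD4 did not pass. ABCD3, which imports branched-chain and bile acid precursors, had 96.4, 98.7 and 101 CPM in TGFB1 libraries, against 132, 126 and 124 CPM in Control libraries. The spread within each group was small beside the gap, and the fall was 1.29-fold (log2 -0.37 ± 0.052 SE, edgeR adjusted p = 9.39e-07).

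ABCD4, which works in lysosomes to release cobalamin (vitamin B12), had 24.3, 23.2 and 24.1 CPM in TGFB1 libraries, against 23.4, 23.0 and 23.0 CPM in Control libraries. These overlapped within a narrow range, and the 95% interval of the difference was -0.12 to 0.20 on the log2 scale (edgeR adjusted p = 0.678). Of 11 other cobalamin genes tested, 4 were lower, 0 were higher and 7 missed the threshold (median -0.24). Over all tested genes 23.9% were lower and 23.4% higher. The falls included the mitochondrial mutase MUT, 1.51-fold, MMAB, 1.32-fold, and MMACHC, 1.23-fold (edgeR adjusted p = 1.35e-06, 8.27e-05 and 0.00180).

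Of 22 tested peroxisome genes 2 were higher, 6 were lower and 14 did not pass (median -0.10), beside 23.4% higher and 23.9% lower over all tested genes. ACBD5, which binds very long chain acyl-CoA at the peroxisome surface, fell 1.90-fold, to 46.3 ± 1.53 CPM in TGFB1, against 87.9 ± 2.42 CPM in Control libraries (edgeR adjusted p = 1.51e-13). Catalase, CAT, fell 1.69-fold and HSD17B4, an enzyme of peroxisomal fatty acid oxidation, 1.30-fold (edgeR adjusted p = 3.08e-11 and 1.74e-06).

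**Figure D4:**
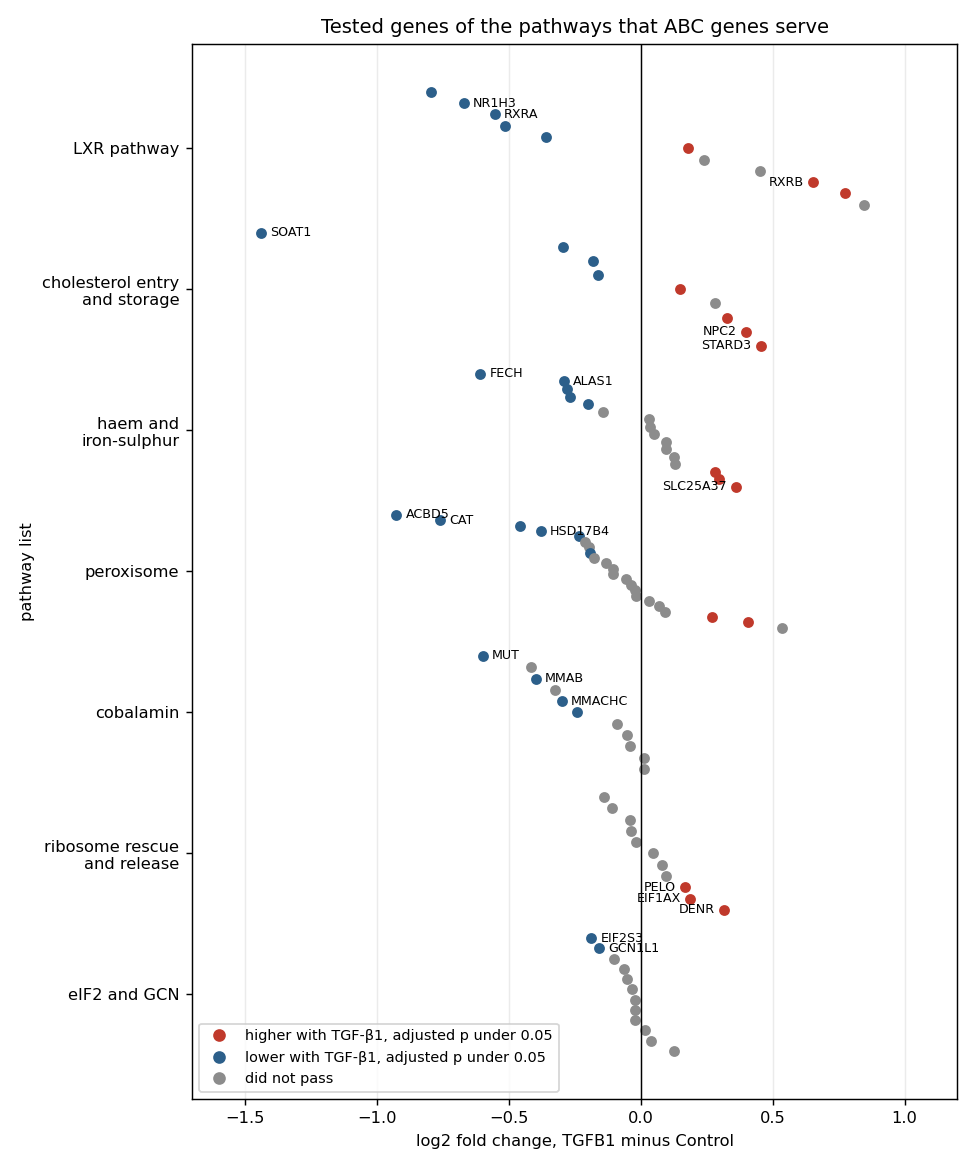
Log2 fold change, TGFB1 minus Control, of the tested genes of 7 pathway lists, one point per gene, red for called higher, blue for called lower and grey for not passed, with the called genes among the 3 lowest p-values of each list named. SOAT1 lies farthest left at -1.44, and the eIF2 and GCN points stay close to 0.

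Of the 4 soluble ABCE and ABCF genes, which act on ribosomes, 2 were lower, by 1.24-fold and 1.08-fold, and 2 did not pass. ABCE1, which splits ribosomes after termination, had 113, 107 and 116 CPM in TGFB1 libraries, against 103, 114 and 111 CPM in Control libraries. The groups overlapped, and the 95% interval of the difference was -0.076 to 0.15 on the log2 scale (edgeR adjusted p = 0.632). ABCF2 averaged 213 ± 4.24 CPM in TGFB1 and 211 ± 13.1 CPM in Control libraries, with an interval of -0.092 to 0.11 (log2, edgeR adjusted p = 0.880). In the basic GENCODE 29 annotation, 54.0% of the exonic bases of ABCF2 are shared with another gene on the same strand. Whether that gene was in the annotation used for counting is not stated, so the level of ABCF2 is uncertain.

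ABCF3, a relative of the yeast protein Gcn20, had 82.0, 81.6 and 80.2 CPM in TGFB1 libraries, against 102, 98.0 and 102 CPM in Control libraries. The libraries of each group were close together and the groups apart, a 1.24-fold fall (log2 -0.31 ± 0.054 SE, edgeR adjusted p = 2.29e-05). ABCF1, which binds initiation factor eIF2 and ribosomes, had 258, 257 and 268 CPM with TGF-β1, against 273, 292 and 283 CPM in Control libraries. It was 1.08-fold lower, at the threshold (edgeR adjusted p = 0.0431). Its call ended without TGFB1 library 1 or 2 or Control library 2 or 3 (edgeR adjusted p of 0.107 to 0.142), with library totals as the only scaling (edgeR adjusted p = 0.303) and in DESeq2 (DESeq2 adjusted p = 0.0576).

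Among partners of these proteins, 3 of 11 tested ribosome rescue and release genes were higher, 0 were lower and 8 did not pass (median 0.05). Over all tested genes 23.4% were higher and 23.9% lower. DENR, a recycling factor, rose by 0.32 on the log2 scale, EIF1AX 1.14-fold and PELO, which works with ABCE1 on stalled ribosomes, 1.12-fold (edgeR adjusted p = 3.00e-05, 0.00485 and 0.0198). Of 12 tested eIF2 and GCN genes 2 were lower, 0 were higher and 10 did not pass (median -0.03). EIF2S3, the γ subunit of eIF2, fell 1.14-fold and GCN1L1, whose yeast counterpart binds Gcn20, 1.12-fold (edgeR adjusted p = 0.00176 and 0.0142). EIF2B4 averaged 43.1 ± 0.929 CPM in TGFB1 and 39.5 ± 1.98 CPM in Control libraries and did not pass.

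**Figure D5:**
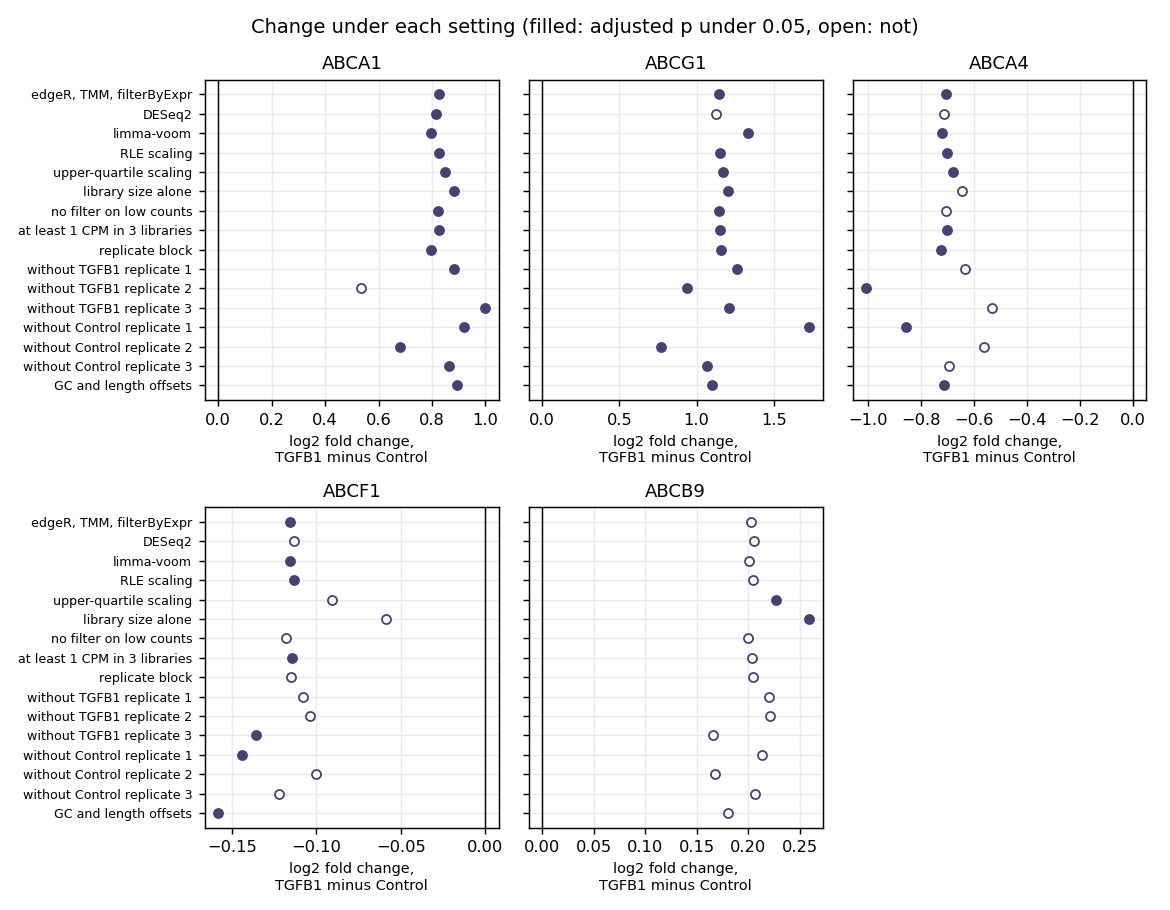
Log2 fold change, TGFB1 minus Control, of 4 members whose call was lost in some setting and of ABCB9, under the main and 15 other settings, filled where the adjusted p was under 0.05 and open where it was not. ABCA1 is open without TGFB1 library 2, ABCG1 in DESeq2, and ABCA4 and ABCF1 in many settings, while no point crosses 0.

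The multidrug efflux genes that the rule leaves out share the family and the libraries. All 9 were tested, and 5 were lower, 2 higher and 2 not past the test (median log2 fold change -0.24, beside -0.12 in the members). Their falls were larger at the top, with ABCB1 42.4-fold, ABCC2 6.64-fold and ABCG2 5.31-fold lower, ABCC5 1.41-fold and ABCC4 1.18-fold lower, ABCC3 1.33-fold and ABCC10 1.17-fold higher, and ABCC1 and ABCC6 not past the test. Whether the lists differ was not tested.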

How the data were processed

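The authors deposited 1 table per library, with raw read counts as whole numbers for each gene symbol and no normalization. Per the submitters' processing notes, HTSeq, TopHat and TopHat2 2.0.11 were used, and GRCh37 and hg19 are the named builds, without their roles. Neither the annotation nor the strand setting is stated there. The counter's closing lines stayed out of all totals. They held 5.44% to 5.98% (no feature), 9.01% to 9.43% (ambiguous) and 12.0% to 12.5% (not unique) of each table's sum. Genes were kept with filterByExpr (minimum count 10, total 15), scaled by TMM and tested with edgeR 4.0.16 (R 4.3.3, robust quasi-likelihood fit, Benjamini-Hochberg adjustment over all 14897 genes, threshold 0.05), and each standard error was the log2 fold change divided by the square root of F. Alternatives used DESeq2 1.42.0, limma 3.58.1, other scalings and filters, a replicate block and leaving out each library. GC and length offsets were added after seeing the data. Lengths came from the longest transcript in the full GENCODE 29 set (GRCh38), and shared exonic bases from its basic annotation, which holds fewer transcripts. Lengths were found for 90.0% of tested genes and all 21 tested members. Libraries of the same group were more different than counting error alone gives (chi-square per degree of freedom of 1.82 to 4.67).

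The members and lists were chosen with earlier results of these data known. Every member that passed the filter was to be named, with up to 3 genes of lowest p in each pathway list. A few genes that enter the counts are not reported here by name. The 3 motifs were chosen after the members' changes were known. The 95% intervals are not adjusted for the number of genes.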

Additional observations from a re-analysis of the deposited data

How the results depend on the processing

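Of the 12 called members 7 kept their direction and their call under all 15 alternatives (among them ABCA2, ABCA5, ABCA7, ABCA13, ABCD3 and ABCF3), and 5 lost the call in at least 1 (among them ABCA1, ABCG1, ABCA4 and ABCF1), none with a change of sign. The count of members called higher was 2, with 1 in DESeq2 and 1 to 3 when a library was left out, 1 of these without TGFB1 library 2. The count called lower was 10 and ran from 7 to 11, and that over all genes was 7044 and ran from 6041 to 7186. Reversals of sign were all in members not past the test. ABCB10 was at 0.019 with upper-quartile scaling and 0.051 with library size alone, against -0.0059 in the main test, and -0.035 to 0.030 when a library was left out. ABCF2 was at -0.029 with GC and length offsets and -0.034 to 0.052 when a library was left out, ABCE1 at -0.0091 to 0.066 and ABCC9 at -0.13 to 1.22. The causes were not tested. ABCB6 passed without Control library 1 (edgeR adjusted p = 0.0210), ABCB8 without TGFB1 library 3 (0.0487) and ABCA3 with GC and length offsets (0.0422). Deviations of same-numbered libraries correlated at 0.0259, -0.134 and -0.0481, and those of differently numbered libraries at -0.114 to 0.158. The replicate numbers thus gave no sign of pairing. They cannot show that the libraries were unpaired, since the deviations also followed transcript length. With the number as a block 6775 genes were called and ABCF1 was lost (edgeR adjusted p = 0.115). Members averaging under about 5 CPM in both groups rest on few counts, which limits ABCA1, ABCG1, ABCA4, ABCB6 and ABCC9. ABCA13 and ABCA5 averaged under 5 CPM in the TGFB1 group alone. There they had 22 to 30 and 66 to 72 counts per library, which limits the size of their falls.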

Other observations

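Promoters of members with and without enough counts to be tested differed in composition. In the RefSeq windows of 300 bases, the 17 tested members with an entry held a median of 28 CG pairs (range 3 to 45) and 65.7% G and C, and the 11 untested members held a median of 3 (range 1 to 26) and 48.7%. ABCA13, the member with the largest fall, had 3, the fewest among the tested members, and ABCG4 had 26, the most among the untested. These are descriptions with no test.

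Libraries of the same group differed in a way that followed transcript length. Over 9460 genes of at least 10 CPM, the deviation of a library from the other libraries of its group had a Spearman correlation with transcript length of -0.434 in TGFB1 library 3 and 0.412 in TGFB1 library 2, and of 0.458 in Control library 1 and -0.446 in Control library 2. The genes share the libraries and are not independent. The highest levels of both ABCA1 and ABCG1 in each group were in TGFB1 library 2 and Control library 1. Their longest transcripts have 10494 and 3475 bases. With GC and length offsets the log2 fold change of ABCA1 was 0.89 (edgeR adjusted p = 0.000598). That of ABCG1 was 1.10 (edgeR adjusted p = 0.00942). The part of transcript length in the spread of either gene was not tested.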
